A study of Mus musculus with 15 samples.

Results

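The core circadian clock genes were the 10 genes named Arntl, Clock, Npas2, Per1, Per2, Per3, Cry1, Cry2, Nr1d1 and Nr1d2, taken by gene name from the 54532 genes of the liver and lung count tables. All 10 passed the filter on low counts in every comparison. Poly-A RNA was sequenced from liver and lung of male wild-type C57BL/6J mice, labelled as 28 weeks old (the housing and feeding times in the study's methods add up to more), that ate a control diet (CS) or the same diet with 2% phytosterols (PS), plant sterols that were mainly β-sitosterol, campesterol and stigmasterol. The liver set held 4 CS and 5 PS mice, and the lung set held 3 CS and 3 PS mice. All 6 mice of the lung set (CS01, CS02, CS04, PS04, PS09 and PS15) also gave a liver library, whereas CS09, PS05 and PS11 gave liver only. The animals lived under alternating light and dark, and the hour at which tissue was collected is not given in the sources used here.

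The mammalian clock is a transcription loop. The proteins of Arntl (also called Bmal1) and of Clock or its relative Npas2 pair and switch on the Per and Cry genes through E-box sequences, and the PER and CRY proteins then block that pair. Nr1d1 and Nr1d2, which encode the nuclear receptors REV-ERB alpha and REV-ERB beta, are switched on by the same pair and repress Arntl, Npas2 and Cry1 through ROR elements. Transcripts of Nr1d1 and those of Arntl peak at opposite times of day, in liver and lung as in most tissues, and those of Cry1 peak later than those of the Per genes.

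The upstream sequences of 5 members are shown because each of these members had an unadjusted p of at most 0.05 between diets in both tissues and a match to a known clock element upstream of a start site. RefSeq promoters (build GRCm38.p6) matched 9 of the 10 members, and each is printed 5′ to 3′ over the 250 bases before the start site. Capitals mark an E-box (CACGTG), its variant (CACGTT), a D-box (TTATGTAA) or the core of a ROR element (AGGTCA), each searched on both strands, with no overlap between matches. The plus-strand Per1 stretch is chr11:69098699-69098948, the Per3 stretch is chr4:151044666-151044915, the Cry1 stretch is chr10:85185055-85185304, the Nr1d1 stretch is chr11:98775378-98775627 and the Nr1d2 stretch is chr14:18239107-18239356, the last 4 on the minus strand.
Per1: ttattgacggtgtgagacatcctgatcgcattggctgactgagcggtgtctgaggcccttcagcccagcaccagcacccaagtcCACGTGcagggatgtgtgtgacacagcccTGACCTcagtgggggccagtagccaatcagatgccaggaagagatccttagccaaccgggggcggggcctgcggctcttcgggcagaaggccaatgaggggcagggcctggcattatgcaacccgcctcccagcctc
Per3: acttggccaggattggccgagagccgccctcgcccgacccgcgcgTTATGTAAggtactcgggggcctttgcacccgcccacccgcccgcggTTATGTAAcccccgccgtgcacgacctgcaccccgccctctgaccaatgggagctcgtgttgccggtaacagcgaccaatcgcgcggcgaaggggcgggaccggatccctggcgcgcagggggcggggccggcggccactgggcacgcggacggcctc
Cry1: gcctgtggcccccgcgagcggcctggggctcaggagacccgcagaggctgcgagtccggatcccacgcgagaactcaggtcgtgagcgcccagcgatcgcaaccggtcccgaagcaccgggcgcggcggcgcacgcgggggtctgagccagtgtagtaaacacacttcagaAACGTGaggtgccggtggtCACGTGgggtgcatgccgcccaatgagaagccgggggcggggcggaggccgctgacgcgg
Nr1d1: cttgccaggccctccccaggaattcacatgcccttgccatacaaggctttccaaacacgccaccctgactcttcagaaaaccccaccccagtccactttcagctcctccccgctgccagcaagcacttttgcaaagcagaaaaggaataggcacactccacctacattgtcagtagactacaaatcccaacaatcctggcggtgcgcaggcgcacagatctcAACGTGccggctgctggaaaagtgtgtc
Nr1d2: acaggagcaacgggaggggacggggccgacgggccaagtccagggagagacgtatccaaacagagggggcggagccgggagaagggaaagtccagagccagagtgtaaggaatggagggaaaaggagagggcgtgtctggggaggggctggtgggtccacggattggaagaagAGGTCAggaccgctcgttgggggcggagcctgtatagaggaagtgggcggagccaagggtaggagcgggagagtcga
Per1, at the first of its start sites, held an E-box at position -166 and a ROR core at position -137, counted from the start site. Cry1 held an E-box at -60 and the variant at -79, Nr1d1 held the variant at -28, Nr1d2 held a ROR core at -77, and Per3 held 2 D-boxes. Of the members not printed, Clock held a ROR core at -119 from 1 of its start sites and Cry2 held the variant at -166, whereas the upstream stretches of Npas2 and of both start sites of Arntl held none of these letters, nor did that of the other start site of Per1. A ROR core did lie past 1 of the Arntl start sites, at position 31. Over the whole promoter window, which runs past the start site, 16.3% of all promoters held a ROR core. Among all 32851 promoters of the table, the same upstream 250 bases held the E-box in 6.02%, the variant in 3.85%, the D-box in 0.819% and the ROR core in 14% of cases. The cAMP response element TGACGTCA was in no member's upstream stretch and in 1.55% of all. A match is a run of letters and not a measured binding site.

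Each liver library held 14410117 to 17625179 counted reads and each lung library 17934930 to 19396057. Hepatocyte markers (5 genes) summed to between 72742 and 115757 library-scaled counts (CPM) in every liver library and to at most 96.0 CPM in lung, and alveolar type II markers (5 genes) summed to at least 19752 CPM in lung and at most 5.46 CPM in liver. The liver library of CS02 stood apart from the other CS livers. Its counts differed from theirs by a chi-square per degree of freedom of 263 to 332, against 42.2 to 96.6 among the other CS livers, and the liver diet tests and the correlations of members with Arntl that shift with it are given with and without it. Each of 14 marker lists was summed in both tissues, and 3 sums did not overlap between diets. In liver this was the fat cell list (4 genes, CS 22.4 to 72.5 and PS 3.40 to 21.0 CPM). Up to 3 of its 4 genes were at 0 in libraries of both diets. In lung these were the alveolar type II list (CS 19752 to 20864, PS 21768 to 34281 CPM) and the B and plasma cell list (5 genes, CS 684 to 1253, PS 1367 to 1779 CPM). Among single genes, 3.63% in liver and 36% in lung did not overlap. None of the genes of these 3 lists passed an adjusted test, and in both lung lists genes went both ways at an unadjusted edgeR p of at most 0.05: Sftpc was higher (0.82 on the log2 scale) and Slc34a2 lower (-0.57), and the plasma cell genes Jchain and Mzb1 were higher (0.67 and 0.61) and the B cell genes Cd79b and Ms4a1 lower (-0.82 and -1.08). Of the other lists, Kdr (endothelial), Adgre1 (macrophage) and Alas2 (erythroid) were lower in PS lungs in edgeR, with log2 fold changes of -0.95, -0.81 and -1.24 and adjusted p of 0.0412, 0.0448 and 0.0354. Csf1r of the macrophage list was higher there at the unadjusted threshold (0.42), and the sum of that list overlapped between diets (CS 102 to 149, PS 134 to 179 CPM). The macrophage list in liver summed to 129 to 199 CPM in CS and 49.0 to 144 CPM in PS, with 2 of its 5 genes lower at an unadjusted p of at most 0.05. The lung of CS04 held 351 CPM of skeletal muscle markers, against at most 8.22 CPM in the other lungs. The part of these markers in the clock results was not tested. In bulk tissue, fewer cells of a type and less RNA per cell cannot be told apart.

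Levels were first ordered across members with FPKM, the deposited value scaled by gene length and by library size. In CS livers Nr1d1 was highest at 11.6 ± 3.23 FPKM (SD, n = 4) and Nr1d2 next at 6.34 ± 1.43 FPKM. Cry1, Cry2, Per1, Clock, Arntl, Per2, Npas2 and Per3 followed, and no neighbours in that order after Nr1d1 and Nr1d2 were farther apart than their SDs. In PS livers the same receptors led, at 28.3 ± 4.72 and 11.2 ± 2.23 FPKM (SD, n = 5), and Arntl (0.840 ± 0.304 FPKM) and Npas2 (0.270 ± 0.103 FPKM) came last, Arntl within the SD of Per3. The lung had another order. Per1 was first in both diets, at 13.9 ± 3.93 FPKM in CS and 26.5 ± 4.77 FPKM in PS (SD, n = 3), and Per3 was last in both, at 1.40 ± 0.287 and 2.50 ± 0.895 FPKM. The SDs of Per3 and Npas2 overlapped in PS lungs. In CS lungs Cry1 was second at 11.4 ± 1.61 FPKM, within the SD of Per1, whereas in PS lungs it was sixth at 6.64 ± 0.933 FPKM, behind Nr1d1, Nr1d2, Cry2 and Per2, and overlapped the SD of Per2.

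The first comparison asked how the clock genes of the liver differed between diets. Livers of the PS group had less Arntl, Npas2 and Cry1 and more Nr1d1, Nr1d2, Per1, Per2 and Per3 than livers of the CS group, whereas Clock and Cry2 did not pass a test. These 8 members passed an unadjusted p of at most 0.05 in edgeR's quasi-likelihood test, 5 higher and 3 lower, where 7.55% of all 13195 genes did. None of the 10 passed after Benjamini-Hochberg adjustment over all genes (0.00758% of genes did), and 3 did in DESeq2 (0.903% of genes), namely Arntl, Npas2 and Nr1d1.

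Arntl (ENSMUSG00000055116; chr7:113207465-113314126, plus strand), the activator without which the loop stops, was at 21.4, 13.9, 23.2 and 15.6 CPM in the livers of CS01, CS02, CS04 and CS09. In PS04, PS05, PS09, PS11 and PS15 it was at 4.02, 9.66, 5.01, 7.02 and 5.37 CPM. Every PS liver was thus below every CS liver. The log2 fold change was -1.57 ± 0.27 (SE), with an adjusted p of 0.0974 in edgeR and 0.000136 in DESeq2. Npas2 (ENSMUSG00000026077; chr1:39193731-39363236, plus strand), the stand-in for Clock in the activator pair, was at 4.97, 4.11, 7.55 and 2.24 CPM in CS livers and at 1.78, 1.76, 1.17, 1.01 and 0.663 CPM in PS livers. The diets did not overlap here either, although the PS values rest on only 10 to 31 reads each. Its log2 fold change was -1.88 ± 0.40, with an adjusted p of 0.175 in edgeR and 0.00266 in DESeq2. Clock (ENSMUSG00000029238; chr5:76209868-76304792, minus strand), the usual partner of ARNTL, was at 46.1, 16.0, 54.2 and 45.7 CPM in CS livers and at 29.1, 39.3, 28.3, 50.2 and 31.4 CPM in PS livers. The groups overlapped widely, and the lowest of the 9 livers was that of CS02. The log2 fold change of Clock was -0.18, with a 95% confidence interval of -0.87 to 0.51, and without CS02 it was -0.45 ± 0.21 (edgeR adjusted p = 0.353). With each liver left out in turn it ran from -0.45 to -0.011.

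Per1 (ENSMUSG00000020893; chr11:69095217-69109960, plus strand), a partner of the CRY repressors, was at 5.52, 39.6, 12.6 and 9.86 CPM in the 4 CS livers in the same order and at 41.7, 26.7, 49.4, 32.9 and 31.2 CPM in the 5 PS livers. Per2 (ENSMUSG00000055866; chr1:91415982-91459324, minus strand), the PER protein whose loss disturbs the rhythm of mice most, was at 3.53, 26.1, 7.66 and 4.42 CPM against 55.8, 16.4, 50.7, 25.8 and 28.0 CPM. Per3 (ENSMUSG00000028957; chr4:151003652-151044665, minus strand), the PER gene least needed for the rhythm, was at 0.772, 12.7, 1.92 and 1.47 CPM against 23.8, 3.98, 19.6, 8.88 and 13.1 CPM. All 3 genes showed the same arrangement: CS01, CS04 and CS09 lay below every PS liver, while CS02 lay among the PS livers. Log2 fold changes were 1.11 ± 0.48 for Per1, 1.76 ± 0.59 for Per2 and 1.72 ± 0.77 for Per3, with edgeR adjusted p of 0.633, 0.460 and 0.647. Without CS02 they were 1.96 ± 0.29, 2.76 ± 0.43 and 3.32 ± 0.57, with edgeR adjusted p of 0.0189, 0.0223 and 0.0312. With each liver left out in turn, the log2 fold changes ran from 0.81 to 1.96, 1.47 to 2.76 and 1.37 to 3.32. The edgeR adjusted p then reached 0.973, 0.892 and 0.990. Per3 spanned the widest range of any member in liver, 30.8-fold between CS01 and PS04, and Cry2 the narrowest, 2.51-fold.

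Cry1 (ENSMUSG00000020038; chr10:85131700-85185064, minus strand), the stronger repressor of the CRY pair, was at 13.1, 8.02, 18.5 and 11.3 CPM in CS livers and at 7.03, 7.84, 5.42, 9.44 and 7.29 CPM in PS livers. The groups overlapped only because CS02 lay below PS11. The log2 fold change was -0.78 ± 0.25, with an unadjusted edgeR p of 0.0104 and an adjusted p of 0.444. Without CS02 it was -0.95 ± 0.23 (edgeR adjusted p = 0.0901). Cry2 (ENSMUSG00000068742; chr2:92403646-92434043, minus strand), its paralog, was at 12.8, 20.1, 26.3 and 18.8 CPM in CS livers and at 23.5, 20.2, 24.8, 29.1 and 32.2 CPM in PS livers. These values overlapped, and the log2 fold change was 0.41 with a 95% confidence interval of -0.079 to 0.90.

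Nr1d1 (ENSMUSG00000020889; chr11:98767932-98775333, minus strand), the main repressor of Arntl, was at 40.7, 41.0, 38.4 and 20.4 CPM in CS livers and at 88.6, 76.3, 73.1, 82.4 and 109 CPM in PS livers. Every PS liver was above every CS liver, and CS02 lay beside CS01 and CS04. The log2 fold change was 1.29 ± 0.23, with an adjusted p of 0.103 in edgeR and 0.000139 in DESeq2. Its gene shares 263 of its 3077 exon bases (8.55%) with Thra on the other strand, and the strand setting of the counting is not given. Thra itself had 144 to 333 reads per liver and a log2 fold change of -0.026 ± 0.29. Nr1d2 (ENSMUSG00000021775; chr14:18204054-18239127, minus strand), the related receptor, was at 23.5, 34.0, 35.6 and 41.6 CPM in CS livers and at 68.8, 43.9, 63.5, 71.1 and 50.7 CPM in PS livers. Every PS liver was again above every CS liver. The log2 fold change was 0.82 ± 0.21, with an edgeR adjusted p of 0.288.

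**Figure D1:**
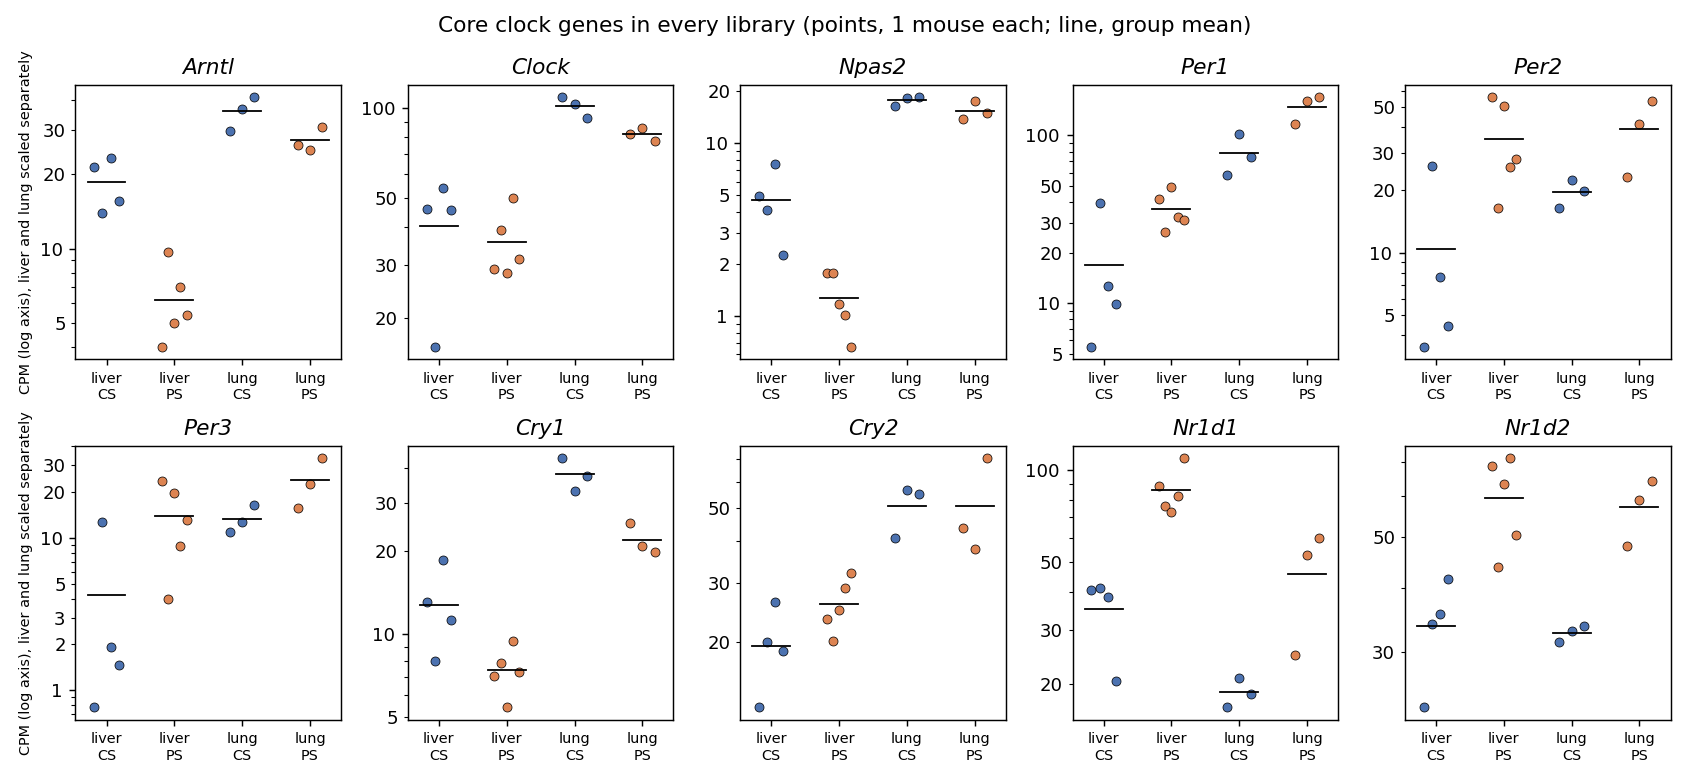
CPM of each core clock gene in every library, on log axes that differ between panels and with liver and lung scaled separately. Each point is 1 mouse (blue CS, orange PS) and each line a group mean. In liver the PS points of Arntl and Npas2 lie below and those of Nr1d1 and Nr1d2 above all CS points, while 1 CS liver (CS02) lies among the PS points for Per1, Per2 and Per3.

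Groups of 4 members did not overlap in liver (Arntl and Npas2 lower, Nr1d1 and Nr1d2 higher), as was so for 3.63% of genes. The median log2 fold change of the 10 members was 0.62, against -0.030 over all genes. Leaving out CS02 raised the members with an adjusted p under 0.05 in edgeR from 0 to 5 (Arntl, Per1, Per2, Per3 and Nr1d1), where 0.486% of genes passed.

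The second comparison asked the same question of the lung. Lungs of the PS group had more Nr1d1, Nr1d2 and Per1 and less Cry1 than those of the CS group, and these 4 of 10 members had an adjusted p under 0.05 in edgeR, where 9.22% of 16717 genes did (4.8% higher, 4.43% lower). In DESeq2 Per2 and Per3 also passed, making 6 of 10 (17.6% of genes). At an unadjusted p of at most 0.05 there were 8 members (30.1% of genes), with Arntl and Clock lower.

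Nr1d1 was at 16.8, 20.9 and 18.6 CPM in the lungs of CS01, CS02 and CS04 and at 24.9, 52.9 and 59.8 CPM in those of PS04, PS09 and PS15. Nr1d2 was at 31.4, 33.0 and 33.8 CPM against 48.1, 59.0 and 64.3 CPM. Both receptors were higher in every PS lung, and PS04 was the lowest of the PS lungs for each. Nr1d1 rose by a log2 fold change of 1.29 ± 0.30 (edgeR adjusted p = 0.0370) and Nr1d2 by 0.80 ± 0.15 (edgeR adjusted p = 0.0264). Thra, the gene that overlaps Nr1d1, had 2023 to 2836 reads per lung and a log2 fold change of -0.086 ± 0.14.

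Per1 was at 58.4, 102 and 74.0 CPM in CS lungs and at 116, 160 and 168 CPM in PS lungs. Per2 was at 16.4, 22.4 and 19.7 CPM against 23.1, 41.8 and 53.4 CPM, and Per3 at 11.0, 12.7 and 16.5 CPM against 15.9, 22.6 and 33.5 CPM. The diets did not overlap for Per1 and Per2, and for Per3 they overlapped through CS04 and PS04. Per1 rose by 0.92 ± 0.23 on the log2 scale (edgeR adjusted p = 0.0417). Log2 fold changes of Per2 and Per3 were 1.02 ± 0.28 and 0.84 ± 0.28, with edgeR adjusted p of 0.0549 and 0.0858.

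Cry1 was at 43.5, 33.0 and 37.5 CPM in CS lungs and at 25.3, 20.8 and 19.9 CPM in PS lungs, without overlap, and fell by 0.79 ± 0.17 on the log2 scale (edgeR adjusted p = 0.0332). Cry2 was at 40.8, 56.7 and 55.3 CPM against 43.5, 38.0 and 70.5 CPM. Its PS lungs held both the highest and the lowest value, and the 95% confidence interval of its log2 fold change ran from -0.56 to 0.55. Arntl was at 29.9, 36.7 and 40.8 CPM in CS lungs and at 26.2, 25.0 and 30.9 CPM in PS lungs, which overlapped through CS01 and PS15. Clock was at 108, 103 and 92.2 CPM against 81.8, 85.5 and 77.4 CPM, without overlap, and Npas2 at 16.4, 18.3 and 18.5 CPM against 13.9, 17.6 and 14.9 CPM. None of the activators passed after adjustment. Log2 fold changes were -0.39 ± 0.17 for Arntl, -0.31 ± 0.13 for Clock and -0.20 ± 0.17 for Npas2, with edgeR adjusted p of 0.161, 0.148 and 0.463.

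Groups of 6 members did not overlap in lung, as was so for 36% of genes, and the members' median log2 fold change was 0.40 against 0.0052 over all genes. The number of members with an adjusted p under 0.05 in edgeR was 0 without CS01, CS02, CS04 or PS09, where 0.134%, 0.151%, 0% and 0.0528% of all genes passed. It was 2 without PS15 (13.2% of genes) and 6 without PS04 (17.1% of genes), so the calls of all genes moved with those of the members. The 4 directions did not change, since the log2 fold change over these 6 fits was 1.05 to 1.58 for Nr1d1, 0.71 to 0.91 for Nr1d2, 0.73 to 1.14 for Per1 and -0.91 to -0.71 for Cry1.

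**Figure D2:**
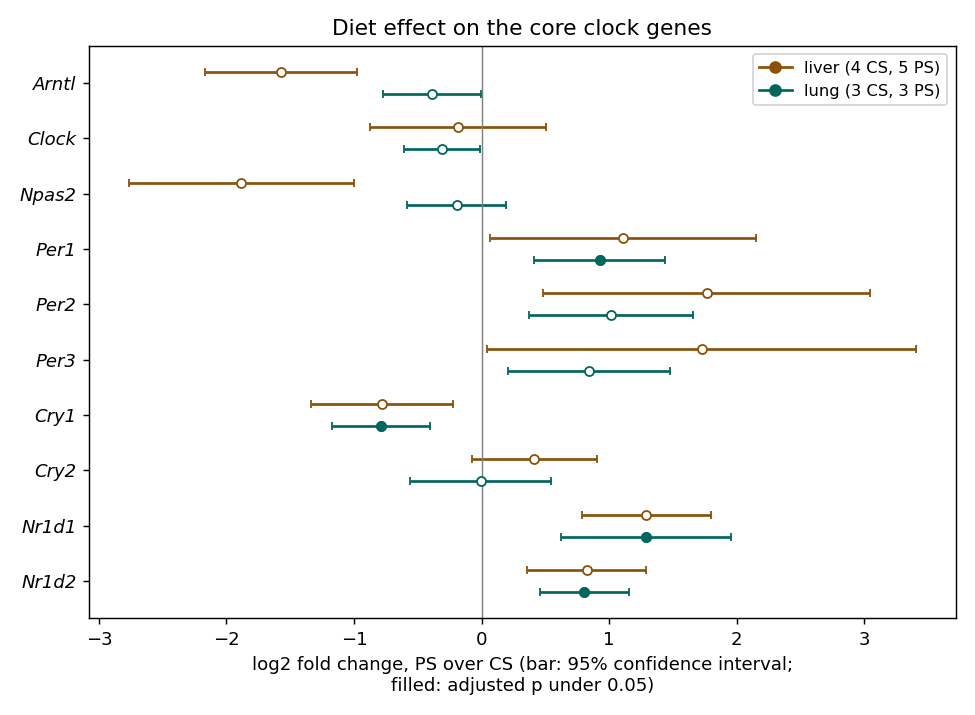
Log2 fold change of PS over CS for each core clock gene in liver (brown; 4 CS, 5 PS) and lung (green; 3 CS, 3 PS), with 95% confidence intervals from edgeR and filled points for an adjusted p under 0.05. Nr1d1 sits at 1.29 in both tissues, while Arntl and Npas2 lie farther below 0 in liver (-1.57 and -1.88) than in lung (-0.39 and -0.20).

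A test of the difference between the diet effects, over all 15 libraries, asked whether the diet effect depended on the tissue. The log2 effect was less negative in lung than in liver, by 1.14 ± 0.38 for Arntl and by 1.65 ± 0.50 for Npas2, with unadjusted edgeR p of 0.00781 and 0.00454. These 2 members were those with an unadjusted p of at most 0.05 (10.9% of 17696 genes, 5.54% with a positive difference), and their adjusted p were 0.341 and 0.315. None of the 10 passed after adjustment in edgeR (0.0226% of genes) or in DESeq2 (1.35% of genes). For Nr1d1 the difference was -0.061, with a 95% confidence interval of -0.86 to 0.74, and for Nr1d2 it was -0.065 (-0.68 to 0.55). It was -0.17 (-1.08 to 0.75) for Clock, -0.044 (-0.81 to 0.72) for Cry1 and -0.47 (-1.22 to 0.27) for Cry2, and -0.26 (-1.55 to 1.04) for Per1 and -0.82 (-2.41 to 0.77) for Per2. The interval of Per3 was the widest, from -3.00 to 1.07. Without the liver of CS02, Per1, Per2 and Per3 joined Arntl and Npas2 at an unadjusted p of at most 0.05, with differences of -1.07, -1.78 and -2.51, and 9.77% of genes did.

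Members grouped by their direction in these data were set against each other within each library as a contrast, the mean log2(CPM + 1) of the 3 Per and 2 Nr1d genes minus that of Arntl, Npas2, Clock and Cry1, with Cry2 in neither group. These groups are not the arms of the loop, since Cry1 is a repressor, and the contrast is a description in which a separation of the diets follows in part from the choice of groups. In liver it was -0.97 in CS01, -0.66 in CS04, -0.32 in CS09 and 1.502 in CS02, and 1.26 in PS05, 1.87 in PS11, 2.36 in PS15 and 2.77 in both PS04 and PS09. CS02 alone placed a CS liver within the PS range. In lung it was -0.78, -0.42 and -0.54 in CS01, CS02 and CS04 and 0.23, 0.84 and 1.13 in PS04, PS09 and PS15. The lung of CS02 lay with the other CS lungs, 0.12 above that of CS04, although its liver lay 2.16 above that of CS04. PS04 likewise had the lowest contrast of the PS lungs and one of the highest of the PS livers. Group means were -0.11 ± 1.11 and 2.21 ± 0.65 in liver (SD, n = 4 and 5) and -0.58 ± 0.18 and 0.74 ± 0.46 in lung (SD, n = 3 and 3), and the difference between diets in liver was 2.32, or 2.86 without CS02.

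**Figure D3:**
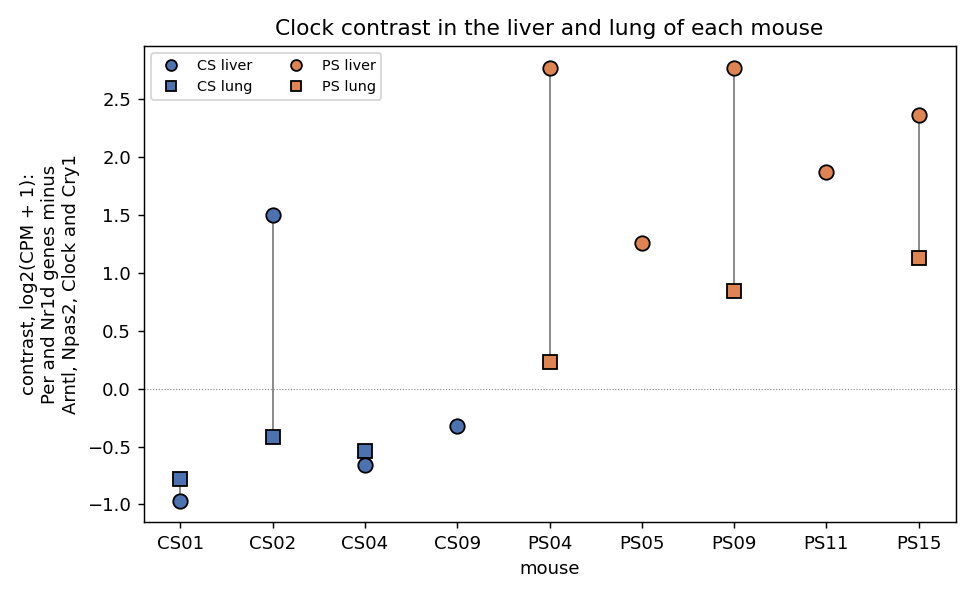
Clock contrast (difference of mean log2(CPM + 1)) of each mouse, with circles for liver, squares for lung, blue for CS and orange for PS, and a line joining the tissues of 1 mouse. All 3 CS lungs lie below 0 and all 3 PS lungs above it, and the liver of CS02 (1.502) is the only CS liver above 0, in groups of genes that were chosen by their direction between diets.

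The third comparison set lung against liver in the 6 mice that gave both tissues, with mouse as a block and with all libraries scaled together. On the CS diet Nr1d1 and Nr1d2 were lower in lung than in liver and Per1 was higher, and these 3 of 10 members had an adjusted p under 0.05 (57.5% of 17605 genes did, 33.2% higher and 24.3% lower). On the PS diet 5 members did (57.7% of genes, 33.9% higher and 23.8% lower): Arntl and Npas2 were higher in lung, and Per2, Nr1d1 and Nr1d2 were lower. All genes had a median log2 difference of 0.32 on CS and 0.36 on PS, against 0.16 and -0.10 for the members.

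Nr1d1 in liver exceeded that in lung 6.28-, 4.84- and 5.36-fold in CS01, CS02 and CS04 and 9.08-, 3.63- and 5.01-fold in PS04, PS09 and PS15. Its log2 difference (lung minus liver) was -2.41 ± 0.28 on CS and -2.32 ± 0.28 on PS, with edgeR adjusted p of 4.86e-05 and 6.07e-05. Nr1d2 was likewise 1.94- to 2.75-fold higher in the livers of the CS mice and 2.16- to 3.64-fold in those of the PS mice. Its log2 difference was -1.22 ± 0.23 and -1.36 ± 0.23 (edgeR adjusted p of 0.00123 and 0.000591). These receptors were the 2 members that passed on both diets.

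Npas2 in lung was 1.27-, 1.81- and 0.940-fold that in liver in the 3 CS mice, and 3.07-, 5.73- and 8.20-fold in the 3 PS mice. Its log2 difference was 0.40 ± 0.37 on CS and 2.49 ± 0.41 on PS (edgeR adjusted p of 0.370 and 0.000465). Arntl followed the same arrangement, at 0.540-, 1.07- and 0.676-fold in CS mice and 2.56-, 1.89- and 2.10-fold in PS mice. On PS its log2 difference was 1.24 ± 0.27 (edgeR adjusted p = 0.00312), and on CS it was -0.42 ± 0.26 (edgeR adjusted p = 0.198). Per1 was 4.09-fold higher in the lung of CS01 and 2.26-fold in that of CS04, but only 1.04-fold in that of CS02. Its log2 difference on CS was 1.11 ± 0.35 (edgeR adjusted p = 0.0193). Without CS01 or CS04 that adjusted p was 0.153 or 0.0669, and without CS02 the members called on CS were 5 (Arntl, Per1, Per3, Nr1d1 and Nr1d2), near the share of all genes (56.3%). Without CS02 Per1 and Per3 were also called on PS (edgeR adjusted p of 0.0348 and 0.0216), where 64.5% of genes were. Per2 was lower in all 3 PS lungs, with a log2 difference of -1.48 ± 0.46 (edgeR adjusted p = 0.0193), and did not pass without PS04 or PS09 (edgeR adjusted p = 0.121 and 0.0826). Of the other members, 4 did not pass on either diet. On CS and PS their log2 differences were 0.22 ± 0.35 and 0.19 ± 0.34 for Clock, 0.28 ± 0.28 and 0.48 ± 0.28 for Cry1, 0.097 ± 0.23 and -0.39 ± 0.23 for Cry2 and 0.91 ± 0.67 and -0.95 ± 0.59 for Per3. The value of Per3 on CS was 0.19 without CS01 and 2.07 without CS02. Over all 13 alternative settings Nr1d1 and Nr1d2 kept their call on both diets and Npas2 on PS, whereas Clock, Npas2, Per1, Cry1 and Cry2 each turned direction on 1 or both diets after a correction of every library for gene length or for GC content, and Per1 on CS (both corrections) and Arntl on PS (gene length) lost their call. Calls as lower in lung were gained by Arntl on CS and Cry2 on PS under both corrections, by Per3 on PS under that for gene length, and by Clock on both diets under that for gene length (-0.84 and -0.85, edgeR adjusted p of 0.0420 and 0.0349). Beside these corrections and the left-out mice, calls were lost by Per1 on CS without the mouse block and by Per2 on PS with no filter or with at least 10 counts in every library, and Cry1 on PS gained one with the latter. The length and GC corrections moved the median of all genes to -0.19 and -0.13 on CS and -0.17 and -0.074 on PS.

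**Figure D4:**
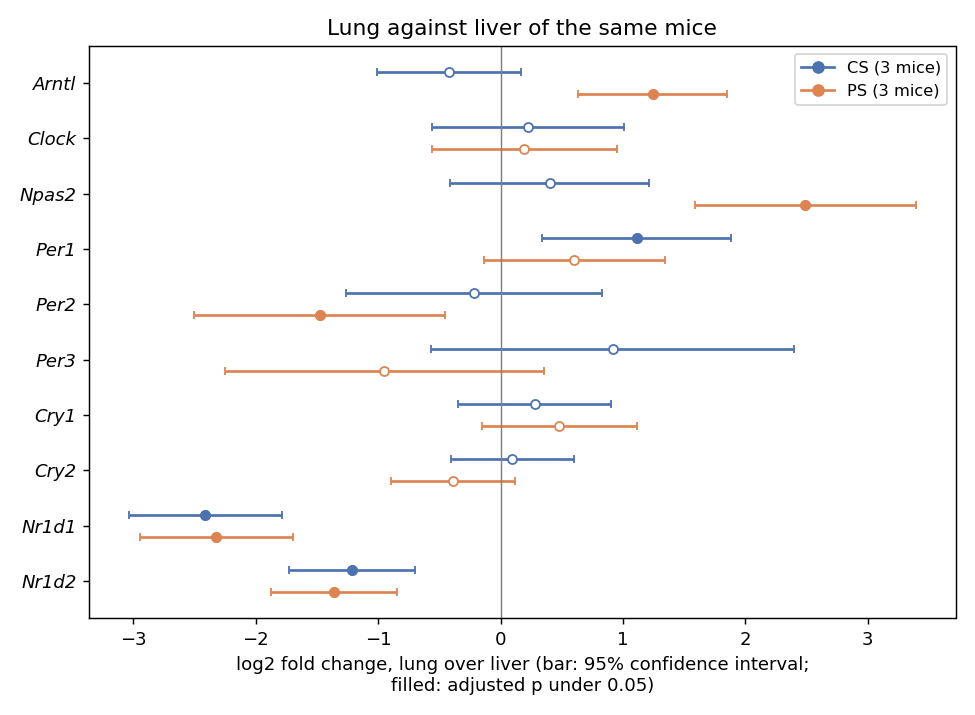
Log2 fold change of lung over liver for each core clock gene in 3 CS mice (blue) and 3 PS mice (orange), with 95% confidence intervals from edgeR and filled points for an adjusted p under 0.05. Nr1d1 (-2.41 and -2.32) and Nr1d2 (-1.22 and -1.36) lie below 0 on both diets, while Arntl and Npas2 lie clear of 0 on PS only.

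Other genes of the pathway were counted as lists. Of 8 clock output and repressor genes, none had an adjusted p under 0.05 in liver in edgeR, and at an unadjusted p of at most 0.05 there were 7 higher (3.96% of genes) and 1 lower (3.58%). The higher ones were Dbp, Tef, Hlf, Ciart, Bhlhe40, Bhlhe41 and Usp2, and the lower one was Nfil3. DESeq2 gave an adjusted p under 0.05 to 3 of these (Hlf, Ciart and Bhlhe40), where 0.903% of genes passed. NFIL3 is a repressor that competes with DBP at D-boxes. Dbp, the D-box activator driven by the ARNTL pair, was at 0.828, 26.6, 4.41 and 2.30 CPM in the livers of CS01, CS02, CS04 and CS09 and at 108, 28.4, 91.4, 37.9 and 112 CPM in the PS livers. As for the Per genes, CS02 was the highest CS liver, here still below every PS liver. Without CS02 the log2 fold change of Dbp went from 3.15 to 4.91 ± 0.66 (edgeR adjusted p = 0.0178), and 4 of the list were higher (Dbp, Ciart, Bhlhe40 and Usp2) and 1 lower (Nfil3) at an adjusted p under 0.05 (0.486% of genes). Bhlhe40, which represses through E-boxes, had a log2 fold change of 1.84 ± 0.28, with an adjusted p of 0.0974 in edgeR and 1.44e-06 in DESeq2. In lung 3 of the 8 were higher and 1 lower at an unadjusted p of at most 0.05 (30.1% of genes), and Hlf and Bhlhe40 were at -0.24 ± 0.22 and -0.20 ± 0.23. There 1 of the 8 rose and 1 fell after adjustment in edgeR (4.8% and 4.43% of genes): Ciart, a repressor of the ARNTL pair, by 2.62 ± 0.62 (adjusted p = 0.0448) and Nfil3 by -0.78 ± 0.20 (adjusted p = 0.0465). DESeq2 called these and Dbp (17.6% of genes).

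Of 8 clock-controlled metabolic genes, 4 were higher (Nampt, Ppargc1a, Alas1 and Wee1) and 1 lower (Elovl3) in liver at an unadjusted p of at most 0.05 (3.96% and 3.58% of genes). None passed after adjustment in edgeR, while Alas1 and Elovl3 did in DESeq2 (0.903% of genes). Without CS02 these also passed in edgeR (adjusted p of 0.0189 and 0.0315), where 0.486% of genes did. Alas1, the rate-limiting enzyme of heme synthesis, had a log2 fold change of 1.13 ± 0.19, and Elovl3, a fatty acid elongase, of -1.53 ± 0.44. In lung 5 of the 8 were tested and none passed after adjustment, with 2 lower at an unadjusted p of at most 0.05 (30.1% of genes in either direction) and 1 called by DESeq2 (Wee1; 17.6% of genes). These were Ppargc1a (-0.69 ± 0.29) and Wee1 (-0.64 ± 0.20), whose liver values were 0.79 ± 0.27 and 1.26 ± 0.35. The difference of their diet effects (lung minus liver) was -1.52 and -1.95, with adjusted p of 0.264 and 0.197 in edgeR and 0.0451 and 0.00296 in DESeq2. Of the other listed genes, Bhlhe40 (-2.08), Hlf (-1.13) and Alas1 (-1.08) also passed in DESeq2, with adjusted p of 0.00238, 0.0431 and 0.0326. Their adjusted p in edgeR were 0.141, 0.245 and 0.306. Of all genes 1.35% passed for this difference in DESeq2 and 0.0226% in edgeR. Of 3 ROR activators, which oppose the NR1D receptors at ROR elements, 2 were tested in liver and none passed at either threshold, and of the 3 tested in lung 1 was lower at the unadjusted one, a share near that of all genes. DESeq2 called none of them in either tissue. Of 8 clock protein modifiers and partners, 7 were tested in liver and none passed at either threshold or in DESeq2. In lung 1 of the 8 was higher and 1 lower at an unadjusted p of at most 0.05, again near the share of all genes, and none passed after adjustment in edgeR, while DESeq2 called 1 (Fbxw11; 17.6% of genes).

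Likeness to Arntl was measured as the mean of Pearson's r of log2(CPM + 1) within the 9 livers and within the 6 lungs, among 9706 genes, as a description over libraries that share diet and depth. The genes most like Arntl were Stx18 (0.944), Dpp3 (0.907), Fbxo18 (0.892), Sgtb (0.887) and Nek4 (0.887). The genes most unlike it were Efhd2 (-0.947), mt-Tl1 (-0.936), Cnep1r1 (-0.931), Cep85l (-0.922) and Camk2n1 (-0.916). Among the members, r with Arntl in liver was 0.862 for Npas2 and 0.855 for Cry1, and -0.883 for Per2, -0.874 for Nr1d2, -0.871 for Per3, -0.812 for Per1 and -0.811 for Nr1d1. Without CS02 (8 livers) the values of these 7 members ran from 0.858 to 0.909 and from -0.966 to -0.802. In lung the same signs held with smaller values, from 0.583 for Npas2 to -0.624 for Nr1d2. Clock was at 0.352 in liver (0.822 without CS02) and 0.402 in lung. Cry2 turned sign between the tissues, at -0.580 in liver and 0.614 in lung.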

How the data were processed

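The authors removed adapter, poly-N and low-quality reads, aligned the rest to mm10 with HISAT2 2.0.5 and counted reads per gene with featureCounts 1.5.0-p3, and these whole-number counts were deposited. The deposited FPKM values are the authors' counts per gene length and library size. Within a tissue each library was a separate mouse, so p-values measure the spread between mice. Counts were fitted over all genes that passed filterByExpr (TMM scaling, robust quasi-likelihood test) in edgeR 4.0.16 under R 4.3.3, per tissue for diet, over all 15 libraries for the difference of diet effects, and over 6 mice with mouse as a block for tissue, the mouse being named in the labels. Liver and lung deviations of 1 mouse correlated between -0.122 and 0.235. DESeq2 1.42.0 and limma 3.58.1 (on log2 FPKM) served as alternatives, beside other scalings, filters, gene length and GC corrections and left-out libraries. CPM are TMM-scaled within a tissue, and jointly for ratios between tissues. Fits were tested on simulated data with known changes, where DESeq2 made more false calls than edgeR in every comparison. The simulated counts were drawn with edgeR's own filter and estimates of spread, so they cannot rank the tools. Motifs were searched by exact letters.

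The 10 members are named whatever their values. Genes of 4 other pathway lists are named where they passed an adjusted p under 0.05 or, in liver, an unadjusted p of at most 0.05 in a diet comparison, and the 5 genes most and least like Arntl are named. Fbxw11, Csnk1e and Timeless fall outside this rule and were named after their values were seen. The members and lists were chosen with earlier results of these data known. Nr1d2 has a processed pseudogene, AC170187.1, that is 96.1% identical over 1385 bases, so some of its reads may be shared.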

Additional observations from a re-analysis of the deposited data

Results flagged for a closer look

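Dixon's ratio was checked in the 20 combinations of member and liver group, since groups of 3 lungs are too small, and chance marks about 1 in 20 groups. It marked 2. Per3 was at 12.7 CPM in the liver of CS02 (CS replicate 2), while the other CS livers held 0.772 to 1.92 CPM. Nr1d1 was at 20.4 CPM in the liver of CS09 (CS replicate 4), while the other CS livers held 38.4 to 41.0 CPM.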

How the results depend on the processing

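Of 810 refitted member fold changes, 707 kept direction and side of the adjusted threshold, 33 lost the call, 30 gained it and 40 changed direction. All 180 liver diet values kept their direction. In liver, the members with an adjusted p under 0.05 (0 in edgeR) were 3 with the DESeq2 Wald test (0.903% of genes) and 2 without a filter on low counts. Without that filter 20 of 24517 genes were called higher and 6 lower. With each library left out the members called were 0 to 5, 5 being without CS02 (0.486% of genes). In lung (4) the members called were 2 with limma-trend on log2 FPKM at either pseudocount and 0 to 6 with each library left out. Of 16717 genes, limma-trend called 495 higher and 590 lower at a pseudocount of 1, and 528 and 557 at 0.1. With each library left out, 0% to 17.1% of all genes were called. For the difference of diet effects, the members with an unadjusted p of at most 0.05 (2) were 2 to 5 with each library left out. Over all genes this ran from 1251 of 18021 to 2636 of 17667. For lung against liver on CS the adjusted calls (3) were 2 to 5 with each mouse left out, and on PS (5) 4 to 7. Of 17914 to 18100 genes, 4574 to 5685 were then called higher and 3380 to 4488 lower on CS. On PS 4484 to 6829 genes were called higher and 3245 to 4796 lower. The cause of these shifts was not tested.

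These values changed direction. With the length trend removed, log2 values were 0.037 for Cry2 in the lung diet comparison, 0.0054 for Clock in the difference of diet effects, -0.84 for Clock, -0.20 for Npas2, -0.061 for Cry1 and -0.53 for Cry2 in lung against liver on CS, and -0.85 for Clock and -0.063 for Per1 on PS. With the GC trend removed they were 0.077 for Clock and 0.19 for Nr1d2 in the difference of diet effects, -0.16 for Clock, -0.078 for Npas2, -0.24 for Cry1 and -0.28 for Cry2 on CS, and -0.013 for Clock, -0.20 for Per1 and -0.094 for Cry1 on PS. With at least 10 counts in every library, Per2 on CS was 0.0089. With each library or mouse left out, values ran from -0.32 to 0.16 for Cry2 in the lung diet comparison, and in the difference of diet effects from -0.34 to 0.11 for Clock, -0.29 to 0.13 for Cry1, -0.27 to 0.22 for Nr1d1, -0.20 to 0.061 for Nr1d2 and -1.07 to 0.027 for Per1. On CS they ran from -0.35 to 0.66 for Clock and -0.72 to 0.42 for Per2. The liver values of the other pathway genes and the correlations with Arntl without CS02 were added after seeing the data, and among them Csnk1e (0.0024) and Timeless (0.025) changed direction.

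Replicate numbers did not pair the mice of the diets (correlation of same-numbered deviations -0.442 to -0.020 in liver and -0.006 to 0.084 in lung). With the replicate number as a block, 6 members passed at an unadjusted p in liver (487 of 13195 genes did) and none after adjustment (0 genes did). In lung 6 members passed after adjustment, where of 16717 genes 817 were higher and 806 lower. With mouse as a replicate block, the difference of diet effects was 0.20 for Cry1 and 0.091 for Nr1d1. There 2 members had an unadjusted p of at most 0.05, as did 979 of 17605 genes. Without the mouse block 2 members passed on CS and 5 on PS in lung against liver. Of 17605 genes, 6319 were then called higher and 4889 lower on CS, and 6611 and 4530 on PS. The clock contrast differed between diets by 1.61 to 2.86 in liver and 1.12 to 1.56 in lung over its alternatives. The low counts of Npas2 and Per3 in liver, down to 10 and 14 reads, limit their precision.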
